A study of Mus musculus with 6 samples.

Results

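The genes described here encode 10 integrin subunits, 6 alpha chains (Itga2, Itga3, Itga5, Itga6, Itga7 and Itgav) and 4 beta chains (Itgb1, Itgb3, Itgb5 and Itgb7). They were taken by symbol from a table of read counts for 24794 genes, and each of the 10 symbols matched 1 row. The libraries hold polyadenylated RNA of Lewis lung carcinoma (LLC) cells, a mouse line of C57BL/6 origin that is grown in culture or as a transplant. For 3 libraries the cells had received mimics of miR-291-3, which the series' design text names as miR-291a-3p, and for the other 3 a control mimic. A mimic is a synthetic RNA duplex that stands in for the mature microRNA. The sources used here give neither dose nor time after transfection, nor the sequence of the control mimic. Separate cultures are not stated for the libraries of a group, and the p-values therefore rest on a spread between libraries that may be technical.

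Integrins are receptors of the cell surface made of 1 alpha and 1 beta chain. The pair of chains sets which matrix protein is bound, and the short tails inside the cell bind talin, kindlin and other adaptors that link the receptor to actin. In carcinoma cells integrins carry attachment, spreading and migration, the behaviours that the title of the series names. Itgb1 encodes the beta chain that most alpha chains share, whereas Itgb3 and Itgb5 pair with the alpha V chain, and Itgb7 is known as a beta chain of leukocytes.

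The libraries held 25376993 to 32963986 counts. Of the 13779 genes that passed the filter on low counts, 49.1% were called in either direction by edgeR's quasi-likelihood test at a threshold of 0.05 on p-values adjusted after Benjamini and Hochberg, with 24.3% as risen and 24.8% as fallen. This split depends on the scaling, since total counts alone as the scale gave 17.0% risen and 32.3% fallen. A limma fit of log2(FPKM + 1) called 16.9% as risen and 25.5% as fallen. The median log2 change over all of them was -0.01, and the biological coefficient of variation was 2.02%. Levels are given as CPM, a gene's counts scaled to a common library size with TMM factors, and where genes are compared with each other as the authors' FPKM, which is also per length. Among 5 markers of lung epithelium and carcinoma, the keratin gene Krt8 stood at 223 ± 3.64 FPKM in the control and 244 ± 6.57 FPKM in the mimic libraries (SD, n = 3 each), whereas the keratin gene Krt18 was low, at 1.21 ± 0.222 and 2.20 ± 0.381 FPKM, and the epithelial adhesion gene Epcam had at most 3 counts in a library. Krt8 and Krt18 both rose, at log2 changes of 0.16 and 0.90 (adjusted p = 3.11e-08 and 2.71e-05, edgeR). The other 2 markers, Nkx2-1 and Sftpc, had no row under these symbols in the count table.

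A microRNA directs repression through bases 2 to 8 of its 5′ end, the seed, and the sequence below shows which letters a target would have to hold. Capitals mark the seed in the RefSeq entry (GRCm38.p6) for the mouse microRNA, which is 22 bases long.
miR-291a-3p: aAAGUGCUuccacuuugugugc

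The 3′ UTRs of the integrin genes were searched on their own strand for words that pair with the seed: AGCACTTA (8mer), GCACTTA (7mer-A1), AGCACTT (7mer-m8) and GCACTT (6mer), where shorter words are parts of longer ones. GENCODE M21 transcripts (GRCm38) were searched, an older build than the GRCm39 of the submitters' processing notes. A site of 7 or 8 bases was found in 2 of the 10 genes, Itgb3 and Itgav, and a 6mer alone in Itga5 and Itgb5. Of the 11585 tested genes that have a 3′ UTR in this annotation, 22.4% had a site of 7 or 8 bases and 12.8% a 6mer alone. The sites are printed with the bases upstream of them, and capitals mark the match.
Itgb3 8mer: ggtgcatctgatgtAGCACTTA
Itgav 7mer-A1: agtaagtttgcacagGCACTTA
Itga5 6mer: acagggagggactagGCACTTc
Itgb5 6mer: cacagcgggccacagGCACTTg

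The Itgb3 site lies at chr11:104669712-104669719 on the plus strand and covers bases 2567 to 2574 of the 3331 in its 3′ UTR. The Itgav site lies at chr2:83803757-83803763, plus strand, bases 422 to 428 of 3581, and 2 of the 4 coding transcripts with a stop codon carry it. In Itga5 the 6mer is at chr15:103345196-103345201 on the minus strand and in Itgb5 at chr16:33948907-33948912 on the plus strand. All 4 sites are exonic and lie within the 3′ UTR. No match was found in the 3′ UTRs of Itga2, Itga3, Itga6, Itga7, Itgb1 and Itgb7, whose longest forms run from 165 bases in Itgb7 to 3404 bases in Itga2.

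Of the 10 integrin genes, 9 passed the filter. Among these 9, Itga3, Itga5, Itga7, Itgav, Itgb1 and Itgb3 rose (6 genes) and Itga6, Itgb5 and Itgb7 fell (3 genes), each at an adjusted p under 0.05 over all 13779 genes. All 9 were thus called, beside 49.1% of all tested genes. The mimic and control libraries did not overlap in 8 of the 9, with 5 higher and 3 lower, and over all tested genes in 54.9%, with 27.0% higher and 27.9% lower. The changes ran from -0.59 for Itgb7 to 0.77 for Itgb3 on the log2 scale, with a median of 0.16. Since RNA was taken from whole cultures, a change in the share of cells with a transcript and a change in transcript per cell cannot be told apart.

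**Figure D1:**
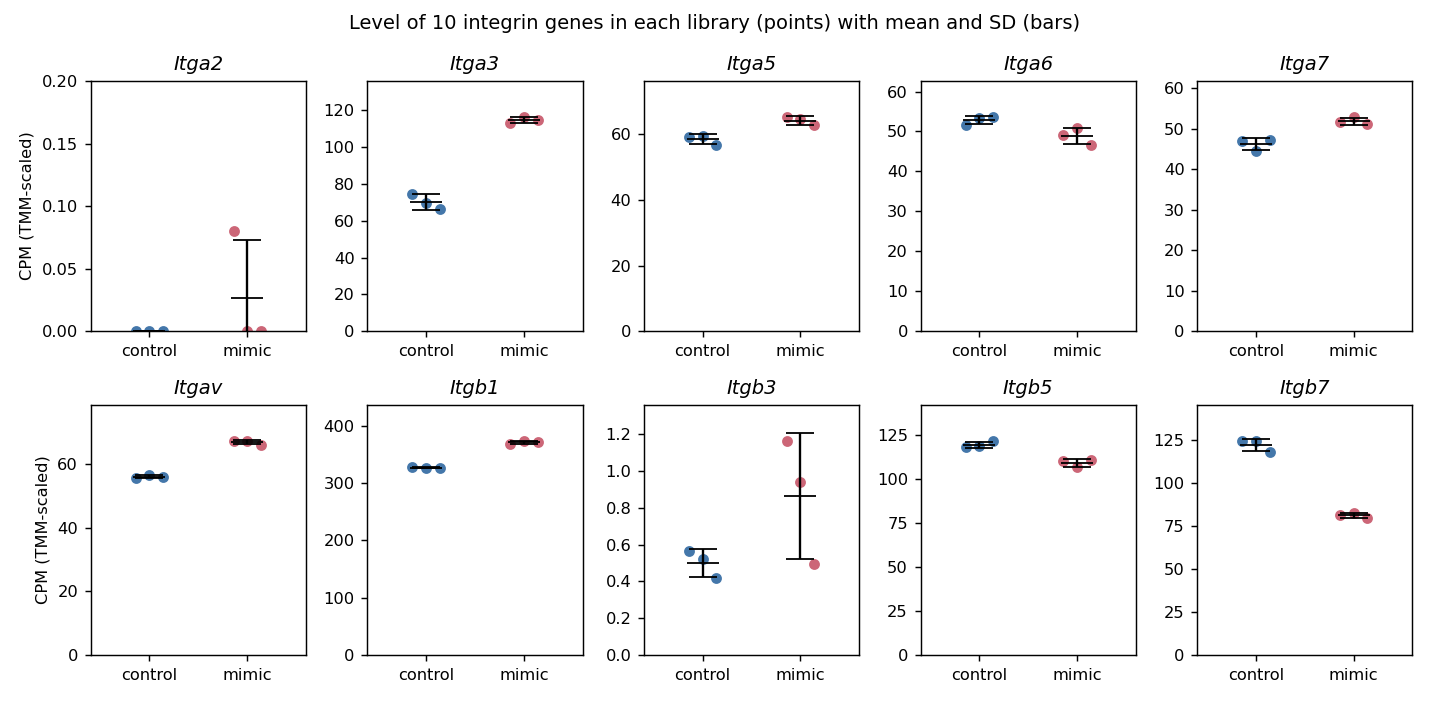
Level of each of the 10 integrin genes (vertical axis, CPM on TMM-scaled library sizes, starting at 0, own scale in each panel) in 3 control and 3 mimic libraries, with a point per library and bars for the mean and SD. Itga3 stands higher in the mimic libraries and Itgb7 lower without overlap, while the 3 mimic values of Itgb3 spread from 0.492 to 1.16 CPM.

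Itgb1, the common beta chain of the receptors for laminin, collagen and fibronectin, had the highest level per length of the 10. The gene (ENSMUSG00000025809.16) lies on the plus strand at chr8:128685654-128733200 (GENCODE M21 on GRCm38, as for all positions here, with gene identifiers as in the count table). It was read at 329, 327 and 327 CPM in the control libraries and at 368, 374 and 373 CPM in the mimic libraries. All 3 mimic libraries were above all 3 controls, and within each group the values lay close together. The rise from 327 ± 1.21 to 372 ± 2.82 CPM (SD, n = 3 each) was 1.14-fold, a log2 change of 0.18 ± 0.02 (SE, adjusted p = 2.96e-09, edgeR). Under the alternative settings the log2 change of Itgb1 ranged from 0.13 to 0.20 and was called in each.

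The 3 genes for laminin-binding alpha chains did not move alike. Itga3 encodes the alpha chain that with beta 1 binds laminins of epithelial basement membranes, and it stood at 74.7, 69.6 and 66.4 CPM in the control and 113, 116 and 115 CPM in the mimic libraries. The lowest mimic value was well above the highest control value. Itga3 (ENSMUSG00000001507.17) lies on the minus strand at chr11:95044474-95076801. Its rise from 70.2 ± 4.17 to 115 ± 1.44 CPM was 1.64-fold, a log2 change of 0.71 ± 0.03 (SE, adjusted p = 2.73e-17, edgeR), with 98.9% of all tested genes at a lower log2 change. Itga7, a laminin receptor chain best known from skeletal muscle, went from 47.1, 44.6 and 47.3 CPM to 51.6, 52.8 and 51.1 CPM. These groups also did not overlap, and the log2 change was 0.16 ± 0.04 (SE, adjusted p = 0.000506, edgeR), about 11.8%. Itga6, whose chain pairs with beta 1 or, in hemidesmosomes, with beta 4, went the other way, from 51.6, 53.3 and 53.5 CPM to 49.1, 50.8 and 46.7 CPM. The highest mimic value lay just under the lowest control value. Itga6 had a log2 change of -0.11 ± 0.04 (SE, adjusted p = 0.0138, edgeR), a call that was lost with the DESeq2 Wald test (adjusted p = 0.105), without control replicate 3 (adjusted p = 0.0505, edgeR) and without mimic replicate 3 (log2 change -0.07, adjusted p = 0.161, edgeR).

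Among the genes for chains that bind the RGD motif of fibronectin, vitronectin and other ligands, the alpha genes Itga5 and Itgav rose. Of their beta partners, Itgb1 rose (log2 change 0.18, as given above) and Itgb5 fell, while Itgb3, with few counts, was called as risen. Itga5, which with beta 1 forms the classical fibronectin receptor, had 59.3, 59.4 and 56.7 CPM in the control and 65.2, 64.7 and 62.8 CPM in the mimic libraries. The groups stood apart by a few CPM, and the log2 change of 0.14 ± 0.03 (SE, adjusted p = 0.00131, edgeR) was lost with total counts only (log2 change 0.08, adjusted p = 0.0550, edgeR), with limma on log2(FPKM + 1) (adjusted p = 0.0518) and on log2(FPKM + 0.1) (adjusted p = 0.0501). Itgav, the alpha chain shared by several RGD receptors, went from 55.7, 56.5 and 56.0 CPM to 67.1, 67.2 and 66.1 CPM. This was a rise with little spread in either group, with a log2 change of 0.25 ± 0.03 (SE, adjusted p = 1.13e-07, edgeR), and it is the gene with the 7mer-A1 site shown above. An opposite-strand transcript, Gm13684, shares 5.90% of the exonic bases of Itgav. The sources used here do not say whether counting used strand.

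Itgb5, the beta chain of a vitronectin receptor with alpha V, was read at 118, 119 and 122 CPM in the control and 110, 107 and 111 CPM in the mimic libraries. All mimic values were lower, and the log2 change was -0.13 ± 0.03 (SE, adjusted p = 0.000146, edgeR) in this gene with a 6mer. Itgb3, the beta chain of another alpha V receptor and of the platelet fibrinogen receptor, was scarcely read, with 17, 15 and 14 counts in the control and 29, 26 and 14 counts in the mimic libraries. The third mimic library was within the range of the controls. Its log2 change of 0.77 ± 0.31 (SE, adjusted p = 0.0402, edgeR) was lost in 9 of 13 alternative settings and when any 1 library other than mimic replicate 3 was left out, the adjusted p being 0.0553, 0.0683 and 0.146 without control replicates 1, 2 and 3 and 0.244 and 0.119 without mimic replicates 1 and 2 (edgeR). Without mimic replicate 3 it was 1.07 (adjusted p = 0.00589, edgeR). The summed level of 5 platelet markers was 3.39 to 4.25 CPM in the control and 3.57 to 4.32 CPM in the mimic libraries. Itgb3, the gene with the 8mer site, had the largest SE of the 9.

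Itga2, the alpha chain of a collagen receptor with beta 1, was not tested. It had 0 counts in each control library and 2, 0 and 0 counts in the mimic libraries. A count of 0 in the control libraries allows up to 0.0910 to 0.106 CPM (3 counts of the library total, counting error only), so that no direction can be read.

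Itgb7 (ENSMUSG00000001281.11, minus strand, chr15:102215995-102231944) had the largest fall of the 9. Its chain pairs with alpha 4 or alpha E on lymphocytes and other leukocytes, where it serves homing to the gut and binding to E-cadherin. The control libraries had 124, 124 and 118 CPM and the mimic libraries 81.3, 82.5 and 79.7 CPM. The groups lay far apart, and the fall from 122 ± 3.50 to 81.1 ± 1.41 CPM (SD, n = 3 each) was a log2 change of -0.59 ± 0.03 (SE, adjusted p = 1.05e-16, edgeR). Of all tested genes 5.04% had a lower log2 change. In every alternative setting the log2 change of Itgb7 was between -0.65 and -0.57 and stayed called.

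The alpha partners of the beta 7 chain were scarcely read. Itgae had 17, 21 and 20 counts in the control and 13, 17 and 26 counts in the mimic libraries. Itgae was tested and not called (log2 change 0.14 ± 0.29, SE, adjusted p = 0.735, edgeR). Itga4 had 4, 3 and 2 counts against 5, 0 and 2. Per length, Itgb7 was at 39.1 FPKM in the control libraries and Itgae at 0.120 FPKM. Of the genes for its known ligands, Madcam1 had 0 counts in the control and 0, 3 and 0 in the mimic libraries, and Cdh1 at most 5 counts. Vcam1, the ligand of alpha 4 integrins, had a log2 change of 0.09 (adjusted p = 0.559, edgeR).

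Of 10 leukocyte markers, which include the integrin genes Itgam and Itgb2, 4 passed the filter. Of these 4, 1 fell and 3 were not called, beside 24.8% fallen over all tested genes. The gene that fell was the lysozyme gene Lyz2 (log2 change -0.99 ± 0.15, SE, adjusted p = 2.76e-06, edgeR). The summed level of the list was 11.3 to 15.0 CPM in the control and 8.29 to 10.5 CPM in the mimic libraries. The pan-leukocyte gene Ptprc had 0, 4 and 0 counts in the control libraries and 0 in each mimic library. Itgb7 alone was at least 79.7 CPM in each library, above the sum of the list. The part of leukocyte transcripts in the change of Itgb7 was not tested.

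**Figure D2:**
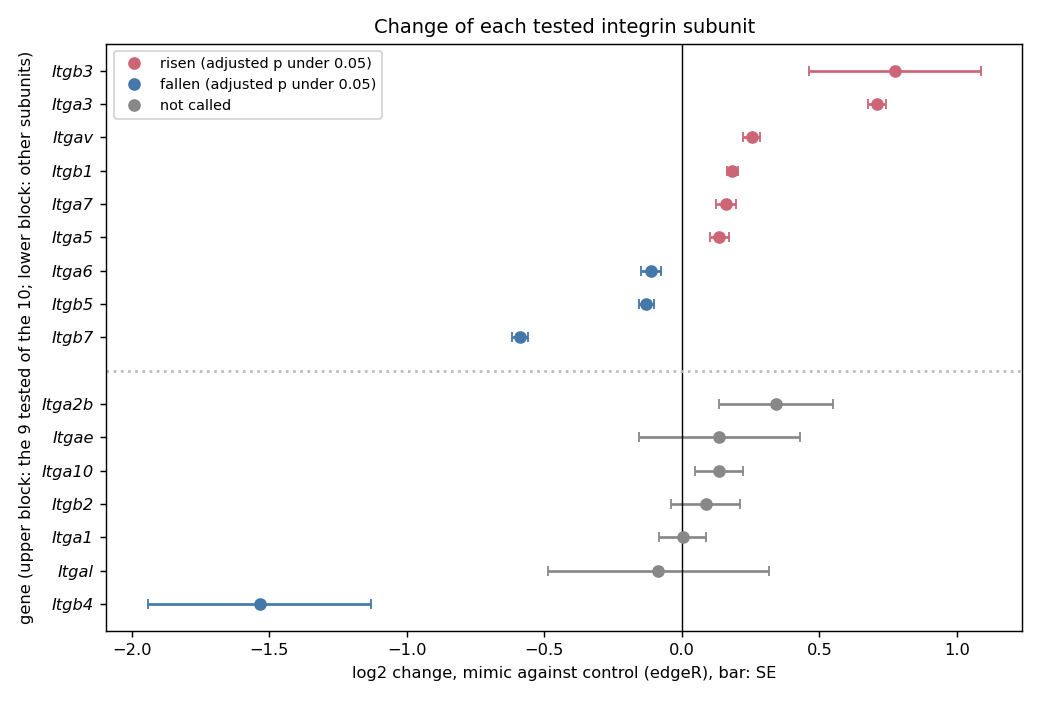
The log2 change of each tested integrin gene in the mimic against the control libraries (horizontal axis, edgeR estimate, bars: SE), with the 9 tested of the 10 genes above the dotted line and 7 other subunits below it. Itgb7 lies at -0.59 and Itga3 at 0.71 with short bars, whereas Itgb3 and Itgb4, both with few counts, have long ones.

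Of 17 other integrin subunit genes on a list beside these 10, 14 had a row in the count table, and Itgad, Itgb2l and Itgb6 had none. Of the 14, 7 passed the filter and 1 of these was called, beside 49.1% of all tested genes. Per length the highest of the 7 was Itga10, at 1.47 ± 0.125 FPKM in the control and 1.58 ± 0.132 FPKM in the mimic libraries. Itga1 was read at 9.99, 9.85 and 10.2 CPM in the control and 8.98, 9.79 and 11.2 CPM in the mimic libraries (log2 change 0.0020, adjusted p = 0.986, edgeR). Itga1 encodes a collagen receptor chain, as does Itga10, which had a log2 change of 0.13 (adjusted p = 0.217, edgeR). Itga2b, the alpha chain of the platelet receptor, had 0.34 (adjusted p = 0.177), the leukocyte beta chain gene Itgb2 0.09 (adjusted p = 0.602) and the leukocyte alpha chain gene Itgal -0.09 (adjusted p = 0.880, all edgeR). Itgb4, the hemidesmosome partner of alpha 6, fell from 24, 14 and 19 counts to 4, 10 and 3 counts. The groups did not overlap, and the log2 change was -1.54 ± 0.41 (SE, adjusted p = 0.00215, edgeR). The log2 change was -2.19 without mimic replicate 2 and -1.19 without mimic replicate 3, the extremes with any single library left out, and called in each such fit. The call was lost with limma on log2(FPKM + 1) (-0.07, adjusted p = 0.119) and on log2(FPKM + 0.1) (-0.49, adjusted p = 0.0559). Itga10 had an SE of 0.09, whereas Itga5, called at a like log2 change of 0.14, had an SE of 0.03. These 7 genes had lower levels than all of the 9 but Itgb3. Their SEs ran from 0.08 (Itga1) to 0.41 (Itgb4), so that a missing call does not show a missing change. No test compared the changes of these 7 genes with those of the 9.

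Per length, the order of the 10 genes differed between the groups. In the control libraries it was Itgb1 (71.2 ± 0.355 FPKM), Itgb7 (39.1 ± 1.24), Itgb5 (29.9 ± 0.391), Itga3 (10.9 ± 0.651), Itga5 (10.5 ± 0.309), Itga6 (5.13 ± 0.110), Itga7 (5.05 ± 0.142), Itgav (4.63 ± 0.0529), Itgb3 (0.0733 ± 0.0115) and Itga2 (listed at 0). Of these neighbours Itga3 and Itga5, and likewise Itga6 and Itga7, overlapped between libraries and cannot be ordered. In the mimic libraries Itgb5 (26.6 ± 0.298 FPKM) stood above Itgb7 (25.4 ± 0.710), and Itga3 (17.4 ± 0.363) stood clear of Itga5 (11.3 ± 0.310). Itga7 (5.52 ± 0.148) and Itgav (5.38 ± 0.106), which overlapped, were then above Itga6 (4.63 ± 0.245).

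The make-up of the alpha and beta transcript pools also differed between the groups. The summed FPKM of the 6 alpha genes was 37.0, 36.4 and 35.4 in the control and 44.1, 45.3 and 43.2 in the mimic libraries, while that of the 4 beta genes was 141, 141 and 139 against 130, 133 and 130. The alpha sum was higher and the beta sum lower in each mimic library than in any control. These are sums of the authors' FPKM without the TMM factors, which were 1.02 in the control and 0.978 to 0.983 in the mimic libraries. The size of the difference in each sum therefore depends on the scaling. Itga3 made up 30.1% ± 1.15 of the alpha sum in the control and 39.4% ± 0.506 in the mimic libraries (SD, n = 3 each). The share of Itga5 went from 29.0% ± 0.423 to 25.5% ± 0.345 although its own level rose, and that of Itga6 from 14.2% ± 0.569 to 10.5% ± 0.306. Among the beta genes Itgb1 went from 50.7% ± 0.226 to 60.2% ± 0.304 and Itgb7 from 27.9% ± 0.636 to 19.4% ± 0.335, and Itgb5 from 21.3% ± 0.450 to 20.3% ± 0.458. The ratio of Itgb1 to the alpha sum was 1.96 ± 0.0345 in the control and 1.78 ± 0.0248 in the mimic libraries. For 8 of the 10 shares and these sums the libraries of the groups did not overlap, which gives p = 0.1 in an exact two-sided permutation test, the smallest p that 3 against 3 libraries allow (0.125 after Benjamini-Hochberg adjustment over the 10 shares). Itgb3 had p = 0.3 and Itga2 p = 1 in that exact test. Transcript shares say nothing of the number of receptor pairs at the surface, which was not measured.

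**Figure D3:**
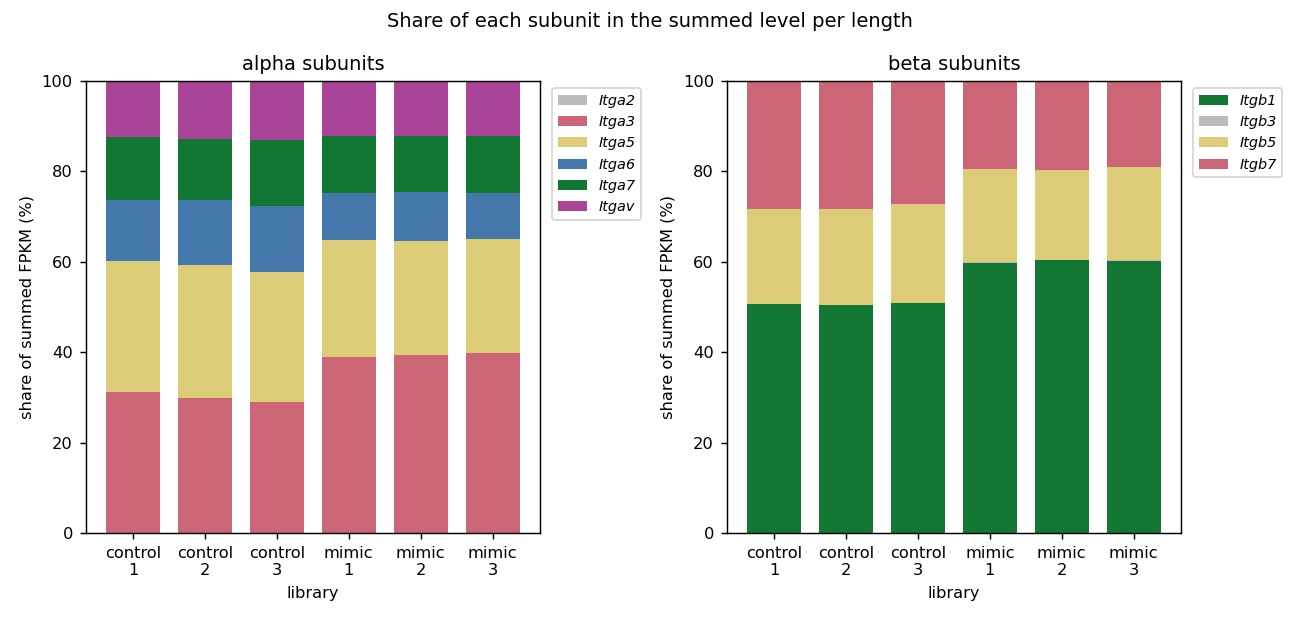
Share of each gene in the summed FPKM of the 6 alpha genes (left) and the 4 beta genes (right), in percent, stacked for each of the 6 libraries. Itga3 takes 38.9% to 39.9% of the alpha sum in the mimic libraries against 29.1% to 31.3% in the controls, and Itgb7 takes 19.0% to 19.6% of the beta sum against 27.2% to 28.3%.

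Most of the called genes for proteins that bind integrin tails or signal from them rose. Of 23 tested genes of this list 14 rose, 4 fell and 5 were not called, beside 24.3% risen and 24.8% fallen over all tested genes. The median log2 change of the list was 0.22, beside -0.01 over all tested genes. Bcar1, which encodes the scaffold p130Cas, rose 1.38-fold (log2 change 0.46 ± 0.03, SE), and the integrin-linked kinase gene Ilk rose 1.21-fold (0.27 ± 0.02). The alpha-actinin genes Actn1 and Actn4, whose products link the tails to actin filaments, rose 1.22-fold and 1.20-fold. The talin genes Tln1 and Tln2 were not called, at log2 changes of 0.02 and -0.02 (adjusted p = 0.482 and 0.571, edgeR). Of the kindlin genes, Fermt2 rose (0.31) and Fermt3 was not called. The genes that fell were Lims1, Parva, Tns2 and Ptk2b, at log2 changes of -0.19, -0.11, -0.13 and -1.31. Ptk2b had at most 30 counts in a library. Of 12 regulators of integrin activation 4 rose, 2 fell and 6 were not called, shares near those of all tested genes. Dok1, whose product competes with talin for beta tails, fell by 0.61 on the log2 scale and Apbb1ip, which encodes the talin recruiter RIAM, fell by 0.29, while the small GTPase gene Rap1b rose 1.13-fold and the filamin gene Flna 1.10-fold.

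Of 16 genes for membrane proteins that travel with integrins and for their traffic 7 rose, 6 fell and 3 were not called, beside 24.3% risen and 24.8% fallen over all tested genes. The tetraspanin gene Cd82 fell from 5.13 ± 0.299 to 2.07 ± 0.384 CPM (SD, n = 3 each; log2 change -1.32 ± 0.14, SE) and the tetraspanin gene Cd81 fell by 0.53 on the log2 scale. The other 3 tetraspanin genes of the list, named after their values were seen, rose, with log2 changes of 0.22 for Cd151, 0.11 for Cd9 and 0.10 for Cd63 (adjusted p = 2.39e-06, 0.000499 and 1.73e-05, edgeR). The call of Cd9 was lost with total counts only (adjusted p = 0.0818, edgeR) and with both limma fits (adjusted p = 0.0783 and 0.0767). Slc3a2, the CD98 heavy chain that binds beta 1 tails, rose 1.22-fold, and Snx17, a sorting nexin that returns beta 1 integrins from endosomes to the surface, rose 1.23-fold.

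**Figure D4:**
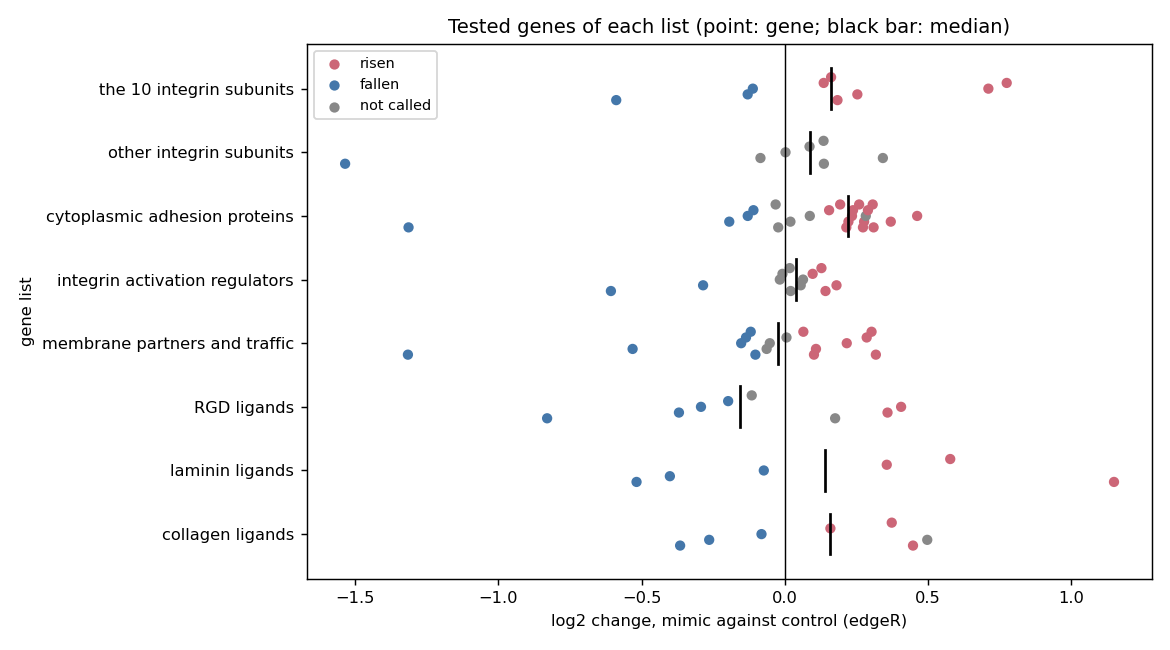
The log2 change (horizontal axis, edgeR, mimic against control) of every tested gene in 8 lists, with a point per gene coloured by its call and a black bar at the median of the list. The cytoplasmic adhesion proteins, which bind integrin tails or signal from them, have a median of 0.22 and the RGD ligands of -0.16. Each list has genes on both sides of 0.

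The genes for integrin ligands are given by class, to be read beside 24.3% risen and 24.8% fallen over all tested genes. Of 8 tested RGD ligand genes 2 rose and 4 fell (median log2 change -0.16): fibronectin, Fn1, fell by 0.83 on the log2 scale, the milk fat globule protein gene Mfge8 fell by 0.37 and osteopontin, Spp1, fell by 0.20, while nidogen, Nid1, rose 1.28-fold. Of 6 tested laminin chain genes 3 rose and 3 fell (median 0.14). Lamb1 and Lamc1 rose 1.49-fold and 1.28-fold, while Lamb2 had a log2 change of -0.40. Of 7 tested collagen genes 3 rose and 3 fell (median 0.16), with the basement membrane chains Col4a1 and Col4a2 up 1.36-fold and 1.29-fold and Col3a1 and Col6a1 down, at log2 changes of -0.37 and -0.26. Apart from these, Col1a1, which was not tested and is named after its values were seen, had 2, 1 and 5 counts in the control and 22, 104 and 3 counts in the mimic libraries. Each of the other ligand genes named here was called (adjusted p between 1.62e-19 and 3.78e-07, edgeR), and each kept its direction and call in every alternative setting.

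The 3 genes outside these lists, of at least 10 CPM, whose log2 CPM followed that of Itga3 most closely over the 6 libraries were Bmp1, Pop5 and Sdc4, with Pearson r of 0.999, 0.999 and 0.998. Their own changes were smaller than that of Itga3, 0.09, 0.31 and 0.25 on the log2 scale. With 3 libraries in each of 2 groups the 6 points are not 6 alike samples, and the r is given as a description.

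**Figure D5:**
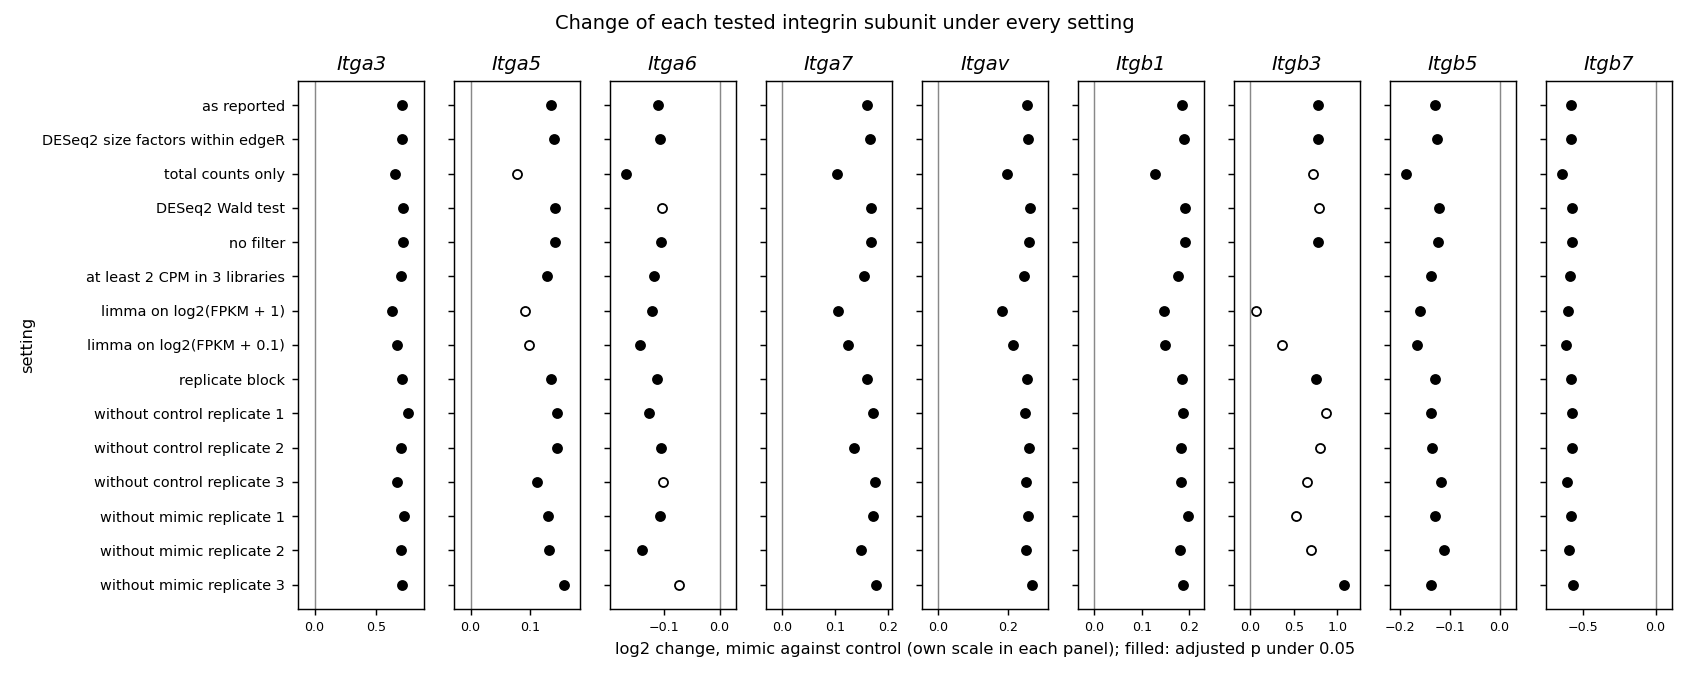
The log2 change of each of the 9 tested integrin genes (horizontal axis, own scale in each panel) under the reported setting and each of 14 alternatives (rows), filled where the adjusted p was under 0.05. Itga3, Itga7, Itgav, Itgb1, Itgb5 and Itgb7 are filled in every row, and Itga5, Itga6 and Itgb3 are not.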

How the data were processed

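The libraries were assigned to 3 mimic and 3 control samples from their titles. Per the submitters' processing notes, HISAT2, DESeq2 and GRCm39 were used, while the sources used here name no counting tool and no annotation release. The authors deposited read counts per gene for 24794 genes and FPKM values, rounded to 2 decimals, for 24494 genes. The test was edgeR's (version 4.0.16, R 4.3.3; glmQLFit and glmQLFTest after filterByExpr and TMM) on the whole count table, called at a Benjamini-Hochberg adjusted p under 0.05, and SE was the size of the log2 change over the square root of F. Each library counted once. Libraries of a group differed by more than sampling noise (mean chi-square per gene 1.84 to 2.23), which does not show that they came from separate cultures.

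Alternatives were scaling by total counts only or by DESeq2 size factors, the Wald test of DESeq2 1.42.0, a filter of at least 2 CPM in 3 libraries or none, limma 3.58.1 on log2(FPKM + 1) and log2(FPKM + 0.1) for the same genes, the replicate number as a block, and each library left out. With FPKM the pseudocount understates changes of low genes. The 3′ UTRs came from every coding transcript with a stop codon, and taking 1 transcript per gene, that of the longest coding sequence, was added after seeing the data. The integrin genes and the other lists were chosen with earlier results of these data known. The text names all 10 integrin genes, every other tested integrin subunit, up to 4 called genes per list with the smallest adjusted p and a mean of at least 2 CPM, and the 3 genes closest to the integrin gene with the smallest adjusted p. Marker and ligand genes given beside Itgb7, and the epithelial markers and 3 of the tetraspanin genes, were chosen after their values were seen. So were the talin and kindlin genes and the fallen genes of the list of proteins that bind integrin tails or signal from them. Protein sequences were not used here.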

Additional observations from a re-analysis of the deposited data

How the results depend on the processing

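The directions of all 9 tested integrin genes were the same in each of 125 values under the alternatives, and 15 of these values were no longer called, 9 of them for Itgb3 and 3 each for Itga5 and Itga6. The count of risen genes among the 10 was 6 as reported, between 5 and 6 with any single library left out and 4 at its lowest (total counts only and both limma fits). The count of fallen genes was 3, and between 2 and 3 with any single library left out. With the replicate number as a block 6 rose and 3 fell. Same-numbered libraries of the groups deviated together with r of 0.02, 0.07 and 0.05, under the 0.1 that would pair them, although each library correlated best with its own number, which is a hint from the data and not the design. Of the other subunits, Itga1 (0.0020) turned to -0.055 with total counts only, -0.0048 with at least 2 CPM in 3 libraries, and -0.010 and -0.029 with limma on log2(FPKM + 1) and log2(FPKM + 0.1). With any single library left out Itga1 ranged from -0.085 to 0.076, Itgae from -0.13 to 0.29 and Itgal from -0.81 to 0.35, none of them called, and Itgb4 from -2.19 to -1.19, called in each. Vcam1 (0.09) ranged from -0.025 to 0.16, never called. The call of Itgb4 was absent with both limma fits, and the gene was not tested with at least 2 CPM in 3 libraries. Total counts only moved the median of all tested genes to -0.06 on the log2 scale and the calls over all genes from 3349 risen and 3423 fallen to 2341 and 4444, and limma on log2(FPKM + 1) and log2(FPKM + 0.1) gave 2323 and 3508, and 2330 and 3501. The 2 genes with a site of 7 or 8 bases were also 2 with the transcript of the longest coding sequence. Depth limits Itga2 and Itgb3, which had at most 2 and 29 counts in a library. It also limits the calls of the 7 other tested subunits.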
